A study of Mus musculus with 7 samples.

Results

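The GBP and IRG families are GTPases that cells make in quantity when they receive interferon, and 10 of their genes are described here in CD8+ T cells exposed to small extracellular vesicles (sEVs). The genes were chosen by symbol: the guanylate-binding proteins *Gbp2*, *Gbp3*, *Gbp4*, *Gbp5*, *Gbp7*, and *Gbp9*, and the immunity-related GTPases *Igtp*, *Irgm1*, *Irgm2*, and *Iigp1*. All 10 were among the 55367 genes of the count table, and all 10 were among the 12623 genes that averaged 5 counts or more per library and were tested. The T cells came from spleens of healthy mice of the Foxp3 YFP/cre strain, were sorted by FACS, and by the labels received 100 μg/mL of sEVs for 48 hours. The study's methods instead describe an amount that followed the respective spleen, so the dose may have differed between sEV sources. The cells of 4 libraries received control EVs, here HCME-sEVs, purified from spleens of healthy mice, and those of 3 libraries received leukemia EVs, here LME-sEVs, purified from spleens of leukemic Eμ-*TCL1* mice. In these mice the TCL1 oncogene is driven in B cells by an immunoglobulin promoter and enhancer, so the donors model chronic lymphocytic leukemia, whereas the treated T cells carry no TCL1 transgene. The study's methods describe culture of CD8+ T cells on anti-CD3 with CD28 antibody and IL2, so both groups were compared under T-cell stimulation, and no library of cells without sEVs was analysed here. The labels give no age for the mice and do not say whether libraries came from separate animals. P-values therefore measure the spread between these libraries, which may be technical.

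Interferon-γ, made by stimulated T cells and NK cells, binds the receptor of IFNGR1 and IFNGR2, and the kinases JAK1 and JAK2 then activate transcription factors in the cytoplasm. These factors move to the nucleus and bind GAS elements in promoters, whereas complexes that contain IRF9, and the IRF factors themselves, bind interferon-stimulated response elements (ISREs). GBP and IRG genes are classic targets of this pathway. Their proteins assemble on the membranes of vacuoles that hold intracellular pathogens, and they are best known in macrophages and other infected cells. The IRG family is divided by function: *Irgm1*, *Irgm2*, and *Igtp* encode regulators that sit on the cell's own membranes and hold effectors such as *Iigp1* inactive there.

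RefSeq promoter windows on GRCm38.p6, from 250 bases before to 50 bases after each annotated start, were at hand for 7 of the 10 genes by symbol. They are shown because each of the 7 genes has a window with the ISRE core on 1 of the strands. The genes belong to families known as interferon targets, so this feature is not independent of their choice. The core was searched as TTTC, any 2 bases, and TTTC. Among all 27025 genes with a window, 1079 (3.99%) had such a match. The stretches run 5′ to 3′ on the strand of the gene with 35 bases on each side, and capitals mark the ISRE core, which reads GAAA, any 2 bases, and GAAA on the other strand.
Gbp2 (chr3:142620569-142620648, plus strand): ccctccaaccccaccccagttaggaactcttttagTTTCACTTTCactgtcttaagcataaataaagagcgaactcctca
Gbp3 (chr3:142559964-142560049, plus strand): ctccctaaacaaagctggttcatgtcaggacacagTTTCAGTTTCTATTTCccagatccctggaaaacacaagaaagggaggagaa
Gbp5 (chr3:142496734-142496813, plus strand): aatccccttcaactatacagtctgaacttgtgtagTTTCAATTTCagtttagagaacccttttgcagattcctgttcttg
Gbp7 (chr3:142530248-142530327, plus strand): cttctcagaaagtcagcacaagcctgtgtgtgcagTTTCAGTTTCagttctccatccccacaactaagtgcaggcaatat
Igtp (chr11:58199487-58199566, plus strand): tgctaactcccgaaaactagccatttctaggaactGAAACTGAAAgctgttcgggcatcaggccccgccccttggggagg
Irgm1 (chr11:48871400-48871485, minus strand): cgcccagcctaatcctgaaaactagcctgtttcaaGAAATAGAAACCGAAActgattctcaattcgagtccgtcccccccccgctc
Irgm2 (chr11:58214878-58214957, plus strand): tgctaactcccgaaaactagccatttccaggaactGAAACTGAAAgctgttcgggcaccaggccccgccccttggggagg

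*Gbp3* and *Irgm1* held 2 overlapping ISRE cores. *Gbp3* has a second annotated start whose window held none. The GAS core TTCNNNGAA, which reads the same on both strands, was found in the windows of *Gbp5*, *Gbp7*, *Igtp*, and *Irgm2*, and in 9.55% of all genes with a window. The windows of *Igtp* and *Irgm2* share a run of 61 identical bases and the same ISRE core. A match to these letters is a description and not a measured binding site.

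**Figure D1:**
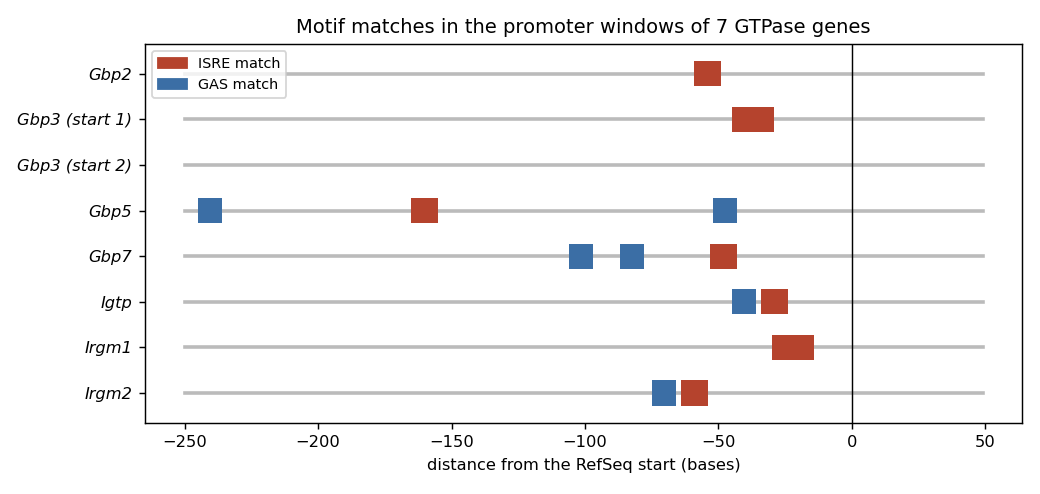
Positions of ISRE (red) and GAS (blue) core matches in the RefSeq promoter windows of 7 GTPase genes, by distance in bases from the annotated start. Every gene has an ISRE match before its RefSeq start, from 30 bases away or less in *Irgm1* to 165 bases away in *Gbp5*. By the outer bounds of the GENCODE gene models, the matches of *Gbp2*, *Gbp5*, *Irgm1*, and *Irgm2* lie inside the gene.

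The 6 GBP genes lie in 2 clusters of GRCm38 (GENCODE vM21, as for all genes here), with *Gbp5*, *Gbp7*, *Gbp3*, and *Gbp2* on chromosome 3 between 142493978 and 142638008 and *Gbp4* and *Gbp9* on chromosome 5 between 105077630 and 105139586. *Igtp* (58199556 to 58207591), *Irgm2* (58199618 to 58222782), and *Irgm1* (48861968 to 48871683) lie on chromosome 11, and *Iigp1* lies on chromosome 18 (60376027 to 60392634). All are annotated as protein-coding. No member had a transcript whose last 300 bases matched those of another gene at 95% identity over at least 200 bases. The largest overlap of a single exon of *Igtp* with one of *Irgm2* was 162 bases, and that of *Gbp4* with *Gbp9* was 60 bases. By the same measure *Gbp8* overlaps *Gbp4* by 61 bases and *Gbp9* by 60 bases. *Gbp7* overlaps the gene model *Gm43802* on the same strand by 637 bases. Totals over all exons were not computed. Reads that fall in the shared parts could have been assigned to either gene or to none.

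RNA was measured by QuantSeq, which sequences the 3′ end of each poly(A) transcript, with molecular identifiers that collapse PCR copies. Totals lay between 3689831 and 5030522 counts per library, and a floor of 3 counts corresponded to between 0.582 and 0.807 CPM, that is, counts scaled to a common library size. All levels are CPM after TMM normalization, which corrects for differences in RNA composition, and means are given ± SD. Because each transcript yields reads at its end alone, no division by length was made. The 10 genes had between 69 and 2191 counts in a library, all above that floor. Together they took between 0.151% and 0.164% of the counts of the HCME-sEV libraries and between 0.125% and 0.135% of those of the LME-sEV libraries.

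With LME-sEVs, 5 of the 10 genes fell and none rose in edgeR's quasi-likelihood test at a false discovery rate (FDR, Benjamini-Hochberg over all genes tested) under 0.05. The 5 were *Gbp2*, *Gbp4*, *Gbp5*, *Irgm1*, and *Iigp1*, and their levels were between 18.3% and 34.8% lower. Among all 12623 genes tested, 8.96% were called by the same rule, 5.21% lower and 3.75% higher. None of the 10 reached the log2 fold change of 1 that the study required of a differentially expressed gene, a rule that 1.28% of all genes passed. At an unadjusted p under 0.05, 7 of the 10 were lower, where 12.3% of all genes were. The median log2 fold change was -0.28 for the 10 genes, beside 0.01 for all genes. The count of 5 became 3 without LME-sEV library 2 (*Gbp2*, *Irgm1*, *Iigp1*) and 3 without LME-sEV library 3 (*Gbp2*, *Gbp5*, *Iigp1*).

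**Figure D2:**
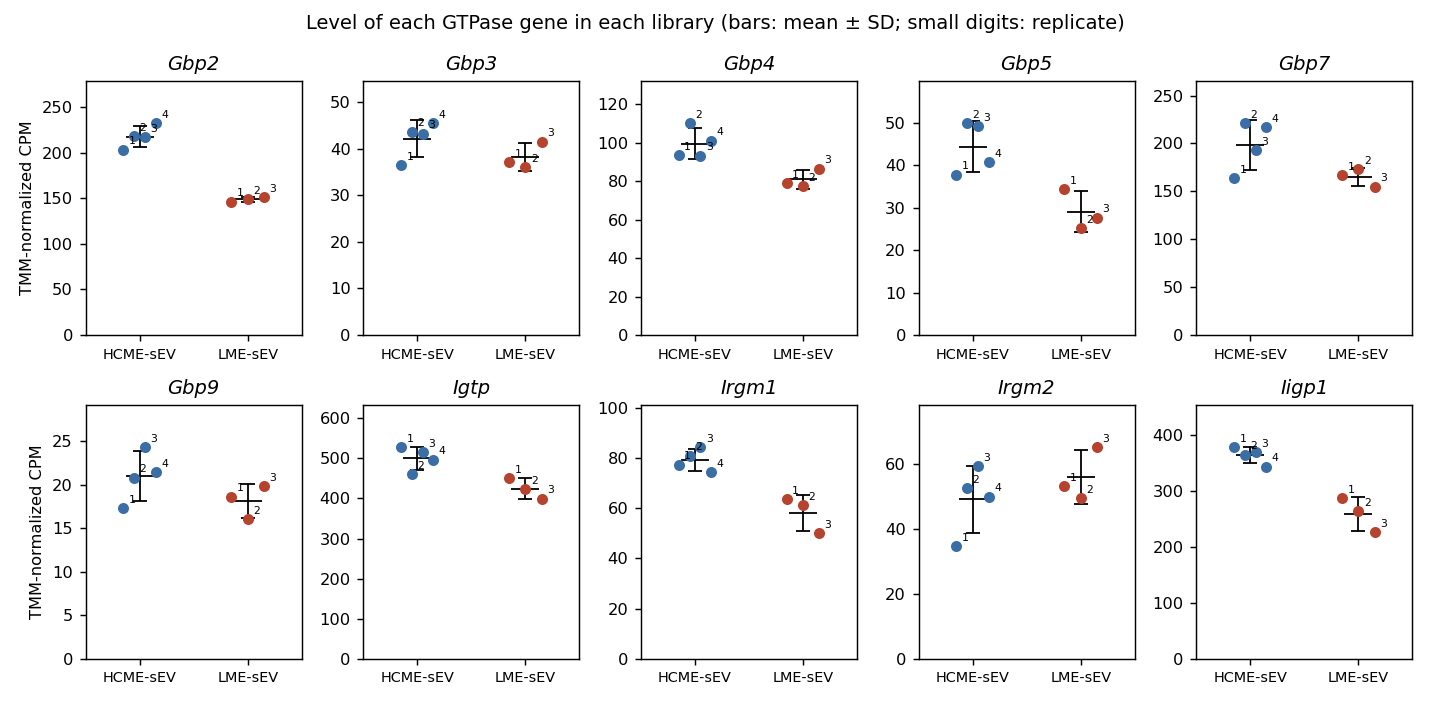
TMM-normalized CPM of the 10 GTPase genes in each library after 48 hours with HCME-sEVs (blue, n = 4) or LME-sEVs (red, n = 3), with the mean and SD in black and the replicate number beside each point. *Gbp2* lies at 203 to 232 CPM against 146 to 151 CPM, with a gap of 52.0 CPM between the groups, and *Iigp1* has a gap of 55.9 CPM, whereas the groups overlap for *Gbp3*, *Gbp7*, *Gbp9*, and *Irgm2*.

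*Gbp2* carries a C-terminal lipid anchor and is among the first GBPs to reach pathogen vacuoles. It was at 203, 218, 217, and 232 CPM in HCME-sEV libraries 1 to 4 and at 146, 149, and 151 CPM in LME-sEV libraries 1 to 3. Every LME-sEV library was below every HCME-sEV library, with a gap of 52.0 CPM. The mean fell from 217 ± 12.0 (n = 4) to 148 ± 2.43 CPM (n = 3), a log2 fold change of -0.55 (standard error 0.078, FDR = 0.000239, edgeR). The call held without any 1 of the 7 libraries.

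*Gbp5*, which also ends in a lipid anchor and is known for its part in inflammasome activation, was at 37.8, 49.9, 49.3, and 40.7 CPM with HCME-sEVs and at 34.4, 25.2, and 27.7 CPM with LME-sEVs. The groups did not overlap, but HCME-sEV library 1 and LME-sEV library 1 were only 3.39 CPM apart. The log2 fold change of -0.62 was the lowest of the 10 genes (standard error 0.13, FDR = 0.00615, edgeR). Without LME-sEV library 2 it was -0.53 and the call was lost (FDR = 0.0614, edgeR).

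*Gbp4*, a member of the cluster on chromosome 5, was at 93.5, 110, 93.1, and 101 CPM with HCME-sEVs and at 78.8, 77.5, and 86.5 CPM with LME-sEVs. Its groups did not overlap, and its log2 fold change of -0.29 (standard error 0.090) passed narrowly, with an FDR of 0.0479 in the edgeR test. The call did not survive leaving out HCME-sEV library 2 or 4 or any of the 3 LME-sEV libraries, with an FDR of up to 0.195 (edgeR).

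*Gbp7* has been linked to the recruitment of the NADPH oxidase and of autophagy proteins to vacuoles. It was at 164, 221, 193, and 217 CPM with HCME-sEVs and at 167, 173, and 155 CPM with LME-sEVs. HCME-sEV library 1 lay among the LME-sEV libraries, whereas the other 3 were above them. The log2 fold change of -0.27 (standard error 0.096) did not pass (FDR = 0.0870, edgeR), and without HCME-sEV library 1 it was -0.35 and passed (FDR = 0.0103, edgeR).

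*Gbp3* and *Gbp9* were called in none of the fits. *Gbp3* was between 36.4 and 45.4 CPM with HCME-sEVs and between 36.0 and 41.5 CPM with LME-sEVs, with a log2 fold change of -0.14 (95% interval -0.37 to 0.09). *Gbp9* was between 17.3 and 24.3 CPM with HCME-sEVs and between 16.0 and 19.8 CPM with LME-sEVs, with a log2 fold change of -0.21 (95% interval -0.51 to 0.10). HCME-sEV library 1 was the lowest of its group for both, and the intervals reach the size of the change in *Gbp4*.

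Of the IRG genes, *Iigp1* encodes the effector that disrupts the membrane of pathogen vacuoles. It was at 379, 365, 370, and 344 CPM with HCME-sEVs and at 288, 264, and 227 CPM with LME-sEVs. The groups were 55.9 CPM apart at their nearest. The mean fell from 365 ± 14.8 (n = 4) to 260 ± 30.7 CPM (n = 3), a log2 fold change of -0.49 (standard error 0.084, FDR = 0.00110, edgeR), and the call held without any 1 of the 7 libraries.

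*Irgm1* encodes a regulator of the effectors with a further part in autophagy. Its levels were 77.3, 80.8, 84.3, and 74.3 CPM with HCME-sEVs and 63.5, 61.1, and 50.0 CPM with LME-sEVs, without overlap. The log2 fold change was -0.45 (standard error 0.10, FDR = 0.00772, edgeR). LME-sEV library 3 was the lowest, and without it the log2 fold change was -0.35 and the call was lost (FDR = 0.0824, edgeR).

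*Igtp*, also known as Irgm3, is another regulator. It was at 528, 460, 515, and 496 CPM with HCME-sEVs and at 451, 423, and 399 CPM with LME-sEVs. Every LME-sEV library was lower, although HCME-sEV library 2 and LME-sEV library 1 were 8.76 CPM apart. Its log2 fold change was -0.24 (standard error 0.076). It was not called in the edgeR test (FDR = 0.0577), and was called with DESeq2 (0.0372), with limma-voom (0.0492), and with the replicate number as a block (0.0333). Under other scalings and filters it was not called (FDR between 0.0589 and 0.116, edgeR). Nor was it called with any 1 library left out (FDR up to 0.262, edgeR).

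*Irgm2*, the regulator whose promoter window resembles that of *Igtp*, was at 34.7, 52.5, 59.2, and 49.8 CPM with HCME-sEVs and at 53.0, 49.4, and 65.1 CPM with LME-sEVs. The groups overlapped, with the lowest value in HCME-sEV library 1 and the highest in LME-sEV library 3. Its log2 fold change of 0.20 (95% interval -0.09 to 0.49) was the only 1 of the 10 above 0 and did not pass (FDR = 0.435, edgeR). Since *Irgm2* stood apart, its level was divided by that of each other IRG gene within each library, a comparison chosen after the values were seen. On the log2 scale the ratio to *Irgm1* was -0.72 ± 0.30 (SD, n = 4) with HCME-sEVs and -0.06 ± 0.38 (SD, n = 3) with LME-sEVs, and that to *Iigp1* was -2.92 ± 0.36 and -2.22 ± 0.36. For both ratios every LME-sEV library was above every HCME-sEV library. The ratio to *Igtp* was between -3.93 and -3.12 with HCME-sEVs and between -3.10 and -2.62 with LME-sEVs, so that its groups were separate by a narrow margin. The ratios restate the levels above and are given as a description.

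**Figure D3:**
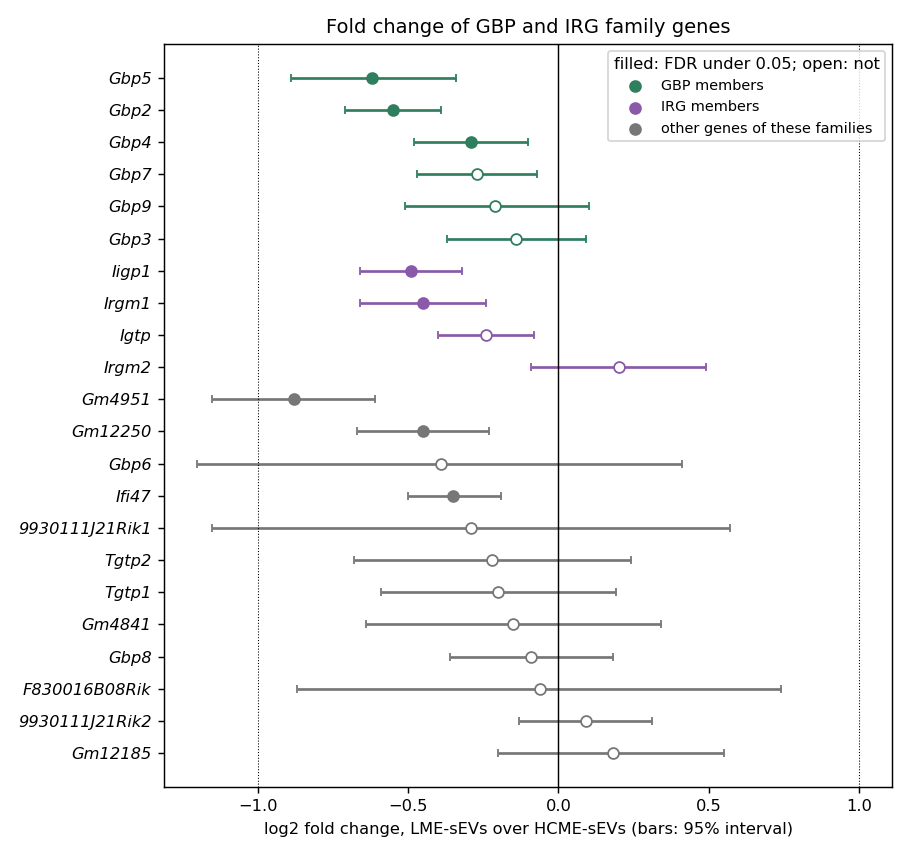
Log2 fold change of LME-sEVs over HCME-sEVs with its 95% interval for the 6 GBP and 4 IRG genes and for 12 other genes of these families that were tested; filled points had an FDR under 0.05 in edgeR's quasi-likelihood test. The 8 filled points lie between -0.88 and -0.29, inside the dotted lines at -1 and 1.

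For 6 of the 10 genes no library of either group lay within the range of the other, and all 6 were lower with LME-sEVs, where 10.8% of all tested genes were lower without overlap and 9.49% were higher. These were *Gbp2*, *Gbp4*, *Gbp5*, *Igtp*, *Irgm1*, and *Iigp1*. The 4 others had their lowest HCME-sEV level in library 1, which had the lowest level of its group in 6 of the 10 genes. Without that library, whose low levels had been seen, 9 of the 10 were lower without overlap and *Irgm2* overlapped, where 12.7% of all tested genes were lower without overlap in the same comparison of 3 against 3 libraries. It was not low for every gene: *Igtp* and *Iigp1* had their highest level there.

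The mean of the standardized log2 CPM of the 10 genes was -0.11 in HCME-sEV library 1, between 0.67 and 0.84 in the other HCME-sEV libraries, and between -0.94 and -0.54 in the LME-sEV libraries. Across the 7 libraries each gene's log2 CPM was set against the mean of the other 9. Pearson's r lay between 0.60 (*Igtp*) and 0.93 (*Gbp5*) for 9 genes and was -0.12 for *Irgm2*. These values describe libraries of 2 groups, and the difference between the groups is part of them.

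**Figure D4:**
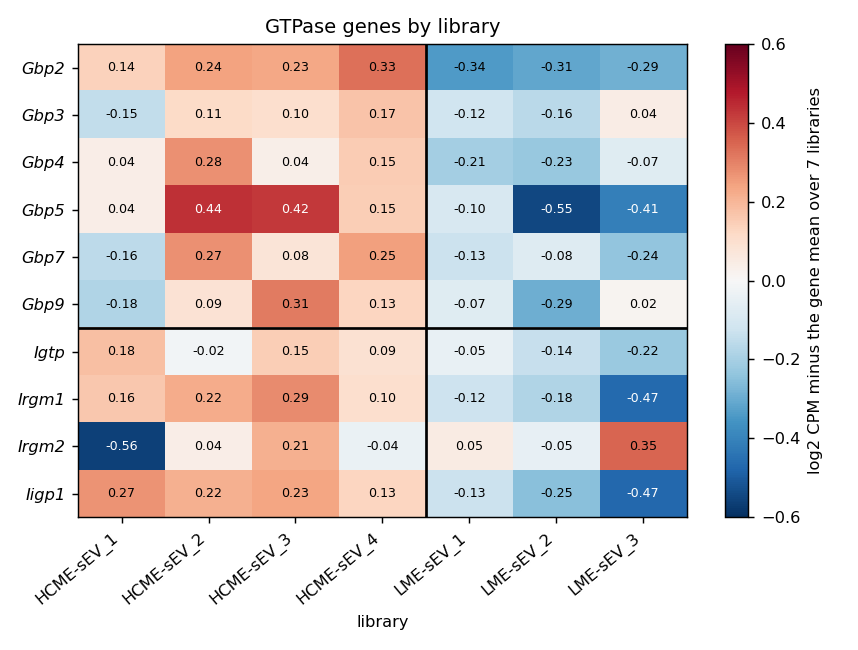
Log2 CPM of each GTPase gene in each library minus the mean of that gene over the 7 libraries (red above, blue below). *Gbp2* ranges from -0.34 to 0.33 and divides at the black line between the groups, and *Irgm2* has its lowest value (-0.56) in HCME-sEV library 1 and its highest (0.35) in LME-sEV library 3.

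The 5 other genes with the most similar profile, by Pearson's r of log2 CPM with the mean of the 10 over the 7 libraries, were *H3f3b* (0.981), *Hid1* (0.980), *Gm4951* (0.976), *Gtf2h1* (0.973), and *Hnrnpab* (0.971). Of these *Gm4951* alone belongs to the IRG family. It lay between 33.2 and 42.9 CPM with HCME-sEVs and between 19.8 and 22.9 CPM with LME-sEVs.

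Of 19 other GBP, IRG, and giant GTPase genes, 12 had enough counts to be tested. Of these 12, 3 fell while none rose, where 5.21% of all genes tested fell and 3.75% rose. *Gm4951* had the lowest log2 fold change, -0.88 (standard error 0.13, FDR = 0.000311, edgeR). *Gm12250*, which encodes the effector Irgb10 and is annotated in GENCODE vM21 as a processed pseudogene, fell by 0.45 (FDR = 0.0120, edgeR; not called without LME-sEV library 2). *Ifi47*, or Irgd, fell from 341 ± 9.07 (n = 4) to 269 ± 18.8 CPM (n = 3; FDR = 0.00648, edgeR; not called without LME-sEV library 3). The other 9 had log2 fold changes between -0.39 (*Gbp6*) and 0.18 (*Gm12185*) and did not pass. *Gbp8*, the neighbor of *Gbp4* and *Gbp9*, was at -0.09 with a 95% interval from -0.36 to 0.18. *Tgtp1* and *Tgtp2*, the copies of Irgb6, were at -0.20 and -0.22. *Gbp2b* had 0 counts in all libraries.

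Upstream of the GTPases, *Ifng* was called lower and 1 of the receptor chains higher, each with calls that were lost in 4 of the 7 fits with a library left out. *Ifng*, the cytokine itself, was at 574, 543, 584, and 428 CPM with HCME-sEVs and at 333, 405, and 475 CPM with LME-sEVs. Only LME-sEV library 3 lay above the lowest HCME-sEV library. *Ifng* fell by 0.39 on the log2 scale (standard error 0.11, FDR = 0.0288, edgeR), a call that was lost without HCME-sEV library 2 or 3 or LME-sEV library 1 or 2, and when only library size was used for scaling (FDR = 0.0528, edgeR).

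*Ifngr1*, the ligand-binding chain of the receptor, was at 272, 310, 371, and 303 CPM with HCME-sEVs and at 369, 400, and 409 CPM with LME-sEVs. LME-sEV library 1 lay below HCME-sEV library 3. The log2 fold change was 0.32 (standard error 0.090, FDR = 0.0274, edgeR), and the call was lost without HCME-sEV library 2 or 4 or LME-sEV library 2 or 3. *Ifngr2*, the signaling chain, had no more than 42 counts in any library and a log2 fold change of 0.17 (95% interval -0.33 to 0.67).

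Of the kinases and factors named next, *Irf2* alone passed the test. *Irf1*, an early target of interferon-γ, was at 350 ± 8.02 (n = 4) and 339 ± 5.06 CPM (n = 3), with a log2 fold change of -0.04 (95% interval -0.19 to 0.10). This interval excludes the change measured for *Gbp2*. *Jak1* (0.11), *Jak2* (0.06), *Stat2* (0.05), *Irf9* (0.06), and *Irf8* (-0.06), in log2 fold change, did not pass either. *Irf2*, which binds the same elements as IRF1 and can repress them, rose by 0.33 in log2 fold change without overlap, from 129 ± 10.4 (n = 4) to 162 ± 12.3 CPM (n = 3; FDR = 0.0196, edgeR; lost without HCME-sEV library 2 or LME-sEV library 2 or 3).

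Of 6 feedback inhibitors, 2 fell and none rose, where 5.21% of all genes tested fell and 3.75% rose. *Socs1*, an interferon target that blocks JAK kinases, was at 64.8, 110, 93.9, and 91.0 CPM with HCME-sEVs and at 52.7, 62.5, and 59.1 CPM with LME-sEVs. Its groups were separate, and its log2 fold change was -0.62 (standard error 0.13, FDR = 0.00529, edgeR). *Usp18*, which damps signaling from the type I receptor, was counted between 21 and 54 times and fell by 0.84 on the log2 scale (FDR = 0.0251, edgeR; lost without HCME-sEV library 3 or LME-sEV library 2 or 3).

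Other interferon targets were divided, and their counts stand beside the 5.21% of all genes tested that fell and the 3.75% that rose. Of 15 tested genes of antigen processing, MHC class I, and interferon-γ-induced chemokines and enzymes, 1 fell and none rose, with a median log2 fold change of -0.02. The gene that fell was *Cxcl10*, with a log2 fold change of -0.99 (FDR = 0.0127, edgeR; lost without LME-sEV library 2 or 3). *B2m*, the light chain of MHC class I, was at 2540 ± 108 (n = 4) and 2510 ± 148 CPM (n = 3), and *Tap1* at 216 ± 12.9 and 234 ± 8.39 CPM. Of 11 tested antiviral genes of the type I response, 4 fell and none rose, with a median of -0.40. They were *Isg15* (-1.54), *Ifit3* (-1.04), *Ifit1* (-0.88), and *Bst2* (-0.77). HCME-sEV library 3 had the highest level of all 4 (45.3, 20.3, 29.1, and 61.6 CPM in the same order). Without that library the log2 fold changes were -1.25, -0.79, -0.62, and -0.68. *Ifit3* had between 19 and 76 counts and a gap of 0.00732 CPM between the groups, and the groups overlapped for *Ifit1*. *Isg15* and *Bst2* stayed called without any 1 library, whereas *Ifit1* and *Ifit3* did not without LME-sEV library 2 or 3, nor *Ifit1* without HCME-sEV library 2 or 3 or with limma-voom (adjusted p = 0.0509).

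The machinery that loads the GTPases onto membranes was measured too. Of 10 genes of the conjugation of ATG8 proteins, which directs GBPs and IRGs to vacuoles, 3 rose and none fell: *Atg12* (0.37), *Map1lc3b* (0.32), and *Gabarapl2* (0.31), in log2 fold change. The *Gabarapl2* call held only without HCME-sEV library 4 among the 7 fits with a library left out. The *Map1lc3b* call was lost without HCME-sEV library 2 or any LME-sEV library, and the *Atg12* call without HCME-sEV library 4 or LME-sEV library 2 or 3. With DESeq2 the adjusted p was 0.0511 for *Gabarapl2* and 0.0592 for *Atg12*. The median over the 10 conjugation genes was 0.23 in log2 fold change. None of 5 genes of prenylation, which attaches the lipid anchor of *Gbp2* and *Gbp5*, and none of 5 tested inflammasome genes passed, while 0 of either list had an unadjusted p under 0.05. Over all 69 tested genes of these lists outside the families, 8 fell and 5 rose, where 5.21% and 3.75% of all genes tested did. The 8 became 5 without HCME-sEV library 3, 3 without LME-sEV library 2, and 4 without LME-sEV library 3. The 5 became 1 without HCME-sEV library 2, 3 without HCME-sEV library 4 or LME-sEV library 1, and 0 without LME-sEV library 2 or 3.

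**Figure D5:**
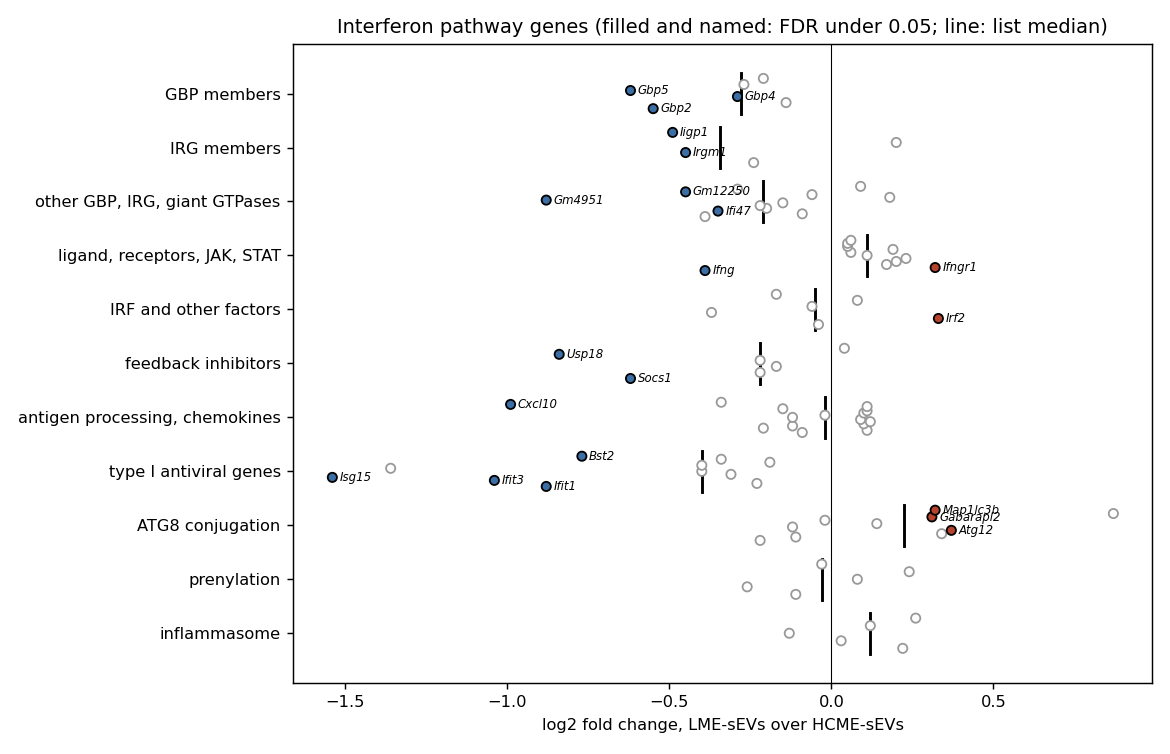
Log2 fold change of LME-sEVs over HCME-sEVs for each tested gene, in rows by list, with genes at an FDR under 0.05 filled (blue lower, red higher) and named, and the list median as a line. The lower genes outside the families are *Ifng*, *Usp18*, *Socs1*, *Cxcl10*, and 4 antiviral genes, and the 5 higher genes are *Ifngr1*, *Irf2*, *Atg12*, *Map1lc3b*, and *Gabarapl2*.

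The libraries carried the markers of CD8+ T cells, with *Cd8a* between 341 and 376 CPM with HCME-sEVs and between 401 and 435 CPM with LME-sEVs. The summed level of 5 CD8+ T-cell markers was 1270 to 1380 CPM with HCME-sEVs and 1480 to 1690 CPM with LME-sEVs, and *Cd3e* and *Cd3g* were called higher. The *Cd3e* call was lost without LME-sEV library 2 or 3, and the *Cd3g* call without either of these or HCME-sEV library 1 or 4, and with DESeq2 (adjusted p = 0.271). *Cd4* had at most 3 counts in a library. The sum of 5 B-cell markers was 4.53 to 7.86 and 4.84 to 6.52 CPM, and *Cd79a* was at 0 in 6 of 7 libraries. The sum of 6 myeloid markers was 2.03 to 4.82 CPM with HCME-sEVs and 5.82 to 7.42 CPM with LME-sEVs. *Cd68*, the only myeloid marker tested, was at 0.76 to 2.17 CPM with HCME-sEVs and at 2.42 to 4.27 CPM with LME-sEVs. Its log2 fold change of 0.95 did not pass (FDR = 0.173, edgeR). *Itgam* had at most 1 count in an HCME-sEV library and 6, 8, and 6 counts in the LME-sEV libraries, while *Adgre1* and *Cd14* had at most 1 count anywhere. The sum of 3 NK-cell markers was 17.9 to 30.4 and 15.9 to 29.3 CPM. Most of it was *Klre1*, at 15.3 to 29.3 CPM over the 7 libraries, whereas *Ncr1* had at most 1 count in a library and *Klrb1c* at most 8. Mitochondrial transcripts took 6.48% to 7.67% of counts with HCME-sEVs and 6.44% to 6.54% with LME-sEVs. The part of these differences in the levels of the GTPase genes was not tested, and in bulk RNA fewer cells that express a gene and less RNA of it per cell cannot be told apart.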

How the data were processed

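The members and gene lists were chosen with earlier results of these data known. Counts per gene symbol in 7 libraries were used as deposited: the authors used cutadapt 2.10 for trimming, STAR 2.5.3a for alignment to GRCm38, UMI-tools 1.0.0 to collapse PCR copies, and featureCounts of Subread 2.0.0, without normalization. The annotation release and the strand setting were not given in the sources used here. Groups came from the sample titles; a legend of the study gives the group sizes the other way round. The labels give 100 μg/mL for every culture, and the methods a physiologic amount, based on that of the respective spleen. The study recovered more sEV protein per gram from leukemic than from healthy spleens. Whether the groups received equal doses is therefore not settled. If the doses differed, dose and vesicle origin cannot be told apart here.

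Genes averaging 5 counts or more per library were normalized by TMM and tested with edgeR 4.0.16 (glmQLFit, glmQLFTest) in R 4.3.3, without covariates and with Benjamini-Hochberg adjustment over all genes. The standard error is the log2 fold change divided by the root of the F statistic. On counts simulated for this comparison, with 12623 genes and 200 of them changed by a log2 fold change of 1.5, 88% were found with 8 false calls. The log2 fold changes of the 10 members were smaller, between -0.62 and 0.20, and recovery of changes of that size was not simulated. Named were the 10 members, their relatives, the core of the pathway, and the called genes of each list at its extremes. *Cd3e*, *Cd3g*, and further list genes given for context were named after their values were seen. Alternatives used DESeq2 1.42.0, limma 3.58.1, other normalizations and filters, a replicate block, and each library left out. The 3′ ends were compared with blast 2.17.0, and promoter windows came from RefSeq. Every pair of libraries of a group differed by more than sampling noise (chi-square divided by its degrees of freedom, 2.10 to 6.00). The 4 HCME-sEV libraries were checked for single libraries far from the rest in 20 genes, and none was found. The values of 1 listed gene are not reported here.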

Additional observations from a re-analysis of the deposited data

How the results depend on the processing

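The number of GTPase genes called lower stayed between 4 and 6 in the 7 other settings of the model and between 3 and 6 with each library left out, and no setting called any of them higher or made any a differentially expressed gene (0 throughout). No member changed direction. The number whose libraries did not overlap was 5 or 6 under other scalings and filters and between 6 and 9 with a library left out, all lower, where between 12.6% and 15% of all tested genes were lower without overlap. Over the pathway lists the genes called lower were between 3 and 10 with a library left out, and the genes called higher between 0 and 4 with a library left out and 3 with the DESeq2 Wald test. All genes called were 1131, and 716 when HCME-sEV library 2 was left out, 393 for LME-sEV library 2, and 461 for LME-sEV library 3. Fewer libraries enter those fits. Other scalings moved the median of all genes by less than 0.1 on the log2 scale.

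Groups share the replicate numbers 1 to 3. Same-numbered libraries deviated together with correlations of 0.072, 0.155, and 0.027, and differently numbered ones with correlations between -0.206 and 0.08. These values do not settle whether the numbers pair the libraries, and the main fit assumed no pairing. With the replicate block 6 members were called (*Igtp* added), 8 pathway genes fell, and 6 rose. All genes called were then 1454, more than the 1131 of the main fit, and *Ifng* had an FDR of 6.12e-05 (edgeR). Values near 0 that were not called changed sign. With the replicate block these were *Gm4841* (0.05) and *F830016B08Rik* (0.01). With each library left out the log2 fold change ranged from -0.25 to 0.06 for *Gm4841*, -0.29 to 0.27 for *F830016B08Rik*, -0.10 to 0.19 for *Stat2*, 0 (to 2 decimals) to 0.13 for *Jak2*, and -0.12 to 0 for *Irf8*. *Gbp4* was not called under library size only, filterByExpr, no filter, DESeq2, or limma-voom. DESeq2 gave no adjusted p for *F830016B08Rik* and *9930111J21Rik1*. At 69 to 102 counts, the depth of *Gbp9* limits what can be shown for it.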

Other observations

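Outside the 10 GTPase genes, 360 tested genes had an ISRE core in a promoter window. Of these 30 (8.33%) fell and 16 (4.44%) rose with LME-sEVs at an FDR under 0.05 in edgeR, with a median log2 fold change of -0.01. Among 8880 tested genes with a window but no such match, 461 (5.19%) fell and 330 (3.72%) rose, with a median of 0. This split was chosen after the values were seen, the shares are given as a description, and the difference between them was not tested. Only the 10 GTPase genes were left out, so their relatives and other interferon genes described above may be among the 360.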
